A study of Homo sapiens with 56 samples.

Results

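Interferon-stimulated genes are the genes that cells switch on when an interferon binds its receptor. A list of 47 of them was followed by gene symbol in bulk RNA sequencing of Mv4;11 and KG-1, which are established human acute myeloid leukaemia cell lines. All 47 were present in both count tables, which share 59081 gene symbols, and all 47 passed the filter on low counts in each fit. The members comprised 5 transcription factors of the pathway, 8 sensors of foreign nucleic acid and enzymes of the OAS family, 4 IFIT proteins, 9 genes of the ISG15 system, ubiquitin ligases and PARP proteins, 4 membrane restriction proteins, 8 MX GTPases and other antiviral effectors, 2 nuclear body proteins and 7 further induced genes.

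Type I interferons signal through the kinases JAK1 and TYK2, which phosphorylate STAT2 and other STAT proteins. STAT2 joins IRF9 in a complex that binds the interferon-stimulated response element in the promoters of target genes, and IRF1 and IRF7 can bind closely related letters. Interferon gamma acts on a different element, the gamma-activated site. The proteins made from the target genes block steps of viral growth, and several of them, including STAT2, IRF9 and IRF7, are parts of the pathway itself. Cells can also raise a subset of these genes without a secreted interferon, after cytosolic DNA or RNA has been sensed.

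Each line was grown in culture and given PMR-116 or CX-5461, each at 1 µM, or as vehicle a buffer of citric acid and sodium phosphate, for 3 h or 12 h. PMR-116 and CX-5461 are inhibitors of RNA polymerase I, which transcribes ribosomal RNA, and CX-5461 is also known to stabilise G-quadruplexes and to trap topoisomerase II on DNA. Each compound had its own vehicle group at each time, so each line had 8 groups, with 3 libraries per group in Mv4;11 and 4 in KG-1, 56 libraries in all. No interferon was added to any group. The labels do not say whether the replicates were separate cultures, so that p-values measure only the spread between these samples, which may be technical. The library names of KG-1 carry a batch label, those of Mv4;11 carry none, and the lines come in separate tables. The KG-1 counts are also named as trimmed, and those of Mv4;11 are not. The cell line, a batch and this processing can therefore not be told apart. Each line is a single established culture, and in bulk samples fewer cells of a type and less RNA per cell cannot be told apart.

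Total counts were 28751758 to 41542156 per library in Mv4;11 and 31010072 to 72707757 in KG-1. Genes with a count numbered 27765 to 31395 per library in Mv4;11 and 21945 to 25086 in KG-1, and the reason was not tested. The marker genes of the lines differed as follows. In Mv4;11, the myeloid genes FLT3 (288 to 472 CPM, the count scaled to library size) and LYZ (667 to 1484 CPM) were abundant and CD34 was at 0 to 1.19 CPM, whereas KG-1 had CD34 at 1795 to 2487 CPM and FLT3 at 3.43 to 6.49 CPM. KG-1 libraries also held the lymphocyte genes NKG7 (143 to 183 CPM) and NCAM1 (62.2 to 117 CPM). One library stood apart among the vehicle libraries of Mv4;11 at 12 h. Replicate 3 of the vehicle of PMR-116 held MALAT1 at 1118 CPM (scaled by library totals) against 57.6 to 73.0 in the other 5. It held RN7SL2 at 435 CPM against 9.03 to 15.6. Levels of these RNAs in the remaining groups are not given here. The count of members called with PMR-116 at 12 h is also given without this library. Other values at 12 h include it unless its omission is stated.

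The response element letters were looked for in 300-base promoter windows of RefSeq on GRCh38.p14, from 250 bases before to 50 bases after each annotated start. A window was present for 37 of the 47 members (50 windows, because some genes have several starts). The core letters of the response element (GAAA, any 2 bases, GAAA, searched on both strands) were found in 25 of the 37 members (67.6%), against 4.38% of the 27305 genes with a window. A longer form, the core followed by CT and so a subset of its matches, was found in 17 of the 37 (45.9%) against 0.322% of all genes. The letters of the gamma-activated site (TTC, any 3 bases, GAA, which read the same on both strands and can overlap the others) were found in 12 of the 37 (32.4%) against 9.38%. The members were listed as known interferon targets, so these shares describe the list and say nothing of the compounds, and a match of letters is not evidence of binding.

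The following 6 stretches, on the strand of the gene and 5′ to 3′, hold core matches (in capitals) upstream of members that were called higher with PMR-116 at 12 h in Mv4;11. They are shown because they include the IFIT5, IFI6, RSAD2 and IFIT3 promoters, whose genes had some of the largest changes described below.
IFIT5, chr10:89414503-89414567, plus strand: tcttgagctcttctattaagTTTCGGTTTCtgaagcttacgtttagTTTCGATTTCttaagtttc
IFI6, chr1:27672256-27672327, minus strand: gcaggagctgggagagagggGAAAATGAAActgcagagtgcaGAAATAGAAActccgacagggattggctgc
RSAD2, chr2:6877612-6877661, plus strand: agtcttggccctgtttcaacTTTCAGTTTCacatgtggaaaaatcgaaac
IFIT3, chr10:89327855-89327904, plus strand: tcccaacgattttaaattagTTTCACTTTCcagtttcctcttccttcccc
HERC5, chr4:88457025-88457074, plus strand: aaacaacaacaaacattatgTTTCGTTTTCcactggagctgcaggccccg
IFI27, chr14:94110608-94110670, plus strand: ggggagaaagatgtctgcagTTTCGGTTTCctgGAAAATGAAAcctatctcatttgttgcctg

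The next 4 stretches hold the same letters in members that were not called with PMR-116 at 12 h in that line, although ISG15 was called higher with CX-5461. With library totals as scaling, ISG15 and IFITM3 were called with PMR-116 too. They are shown to set beside the first set.
ISG15, chr1:1013364-1013419, plus strand: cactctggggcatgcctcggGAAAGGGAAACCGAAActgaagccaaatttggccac
IFIT1, chr10:89392487-89392549, plus strand: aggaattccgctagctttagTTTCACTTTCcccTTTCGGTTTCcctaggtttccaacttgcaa
IFITM3, chr11:320866-320932, minus strand: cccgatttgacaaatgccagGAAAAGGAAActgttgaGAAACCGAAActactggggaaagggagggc
EPSTI1, chr13:42992262-42992311, minus strand: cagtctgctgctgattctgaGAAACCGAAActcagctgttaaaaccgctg

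In Mv4;11 at 12 h, most interferon-stimulated genes were higher with either compound. PMR-116 raised 33 of the 47 and lowered 1 (IFITM2), where 20.7% of all tested genes were called higher and 22.5% lower. CX-5461 raised 31 and lowered none, against 14.8% and 16.5% of all genes. The median log2 fold change of the members was 0.93 with PMR-116, beside 0.01 over all genes, and 0.57 with CX-5461, beside 0.04. A call here means an adjusted p under 0.05 in edgeR's quasi-likelihood test with Benjamini-Hochberg adjustment over all 20495 genes tested. In 32 of the 33 genes called higher with PMR-116, and in all 31 with CX-5461, every treated library lay above every vehicle library. How often this held among all called genes was not counted. Without the library that stood apart, PMR-116 raised 31 members and lowered 1. Leaving out any 1 of the 6 libraries left 24 to 27 calls with CX-5461.

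**Figure D1:**
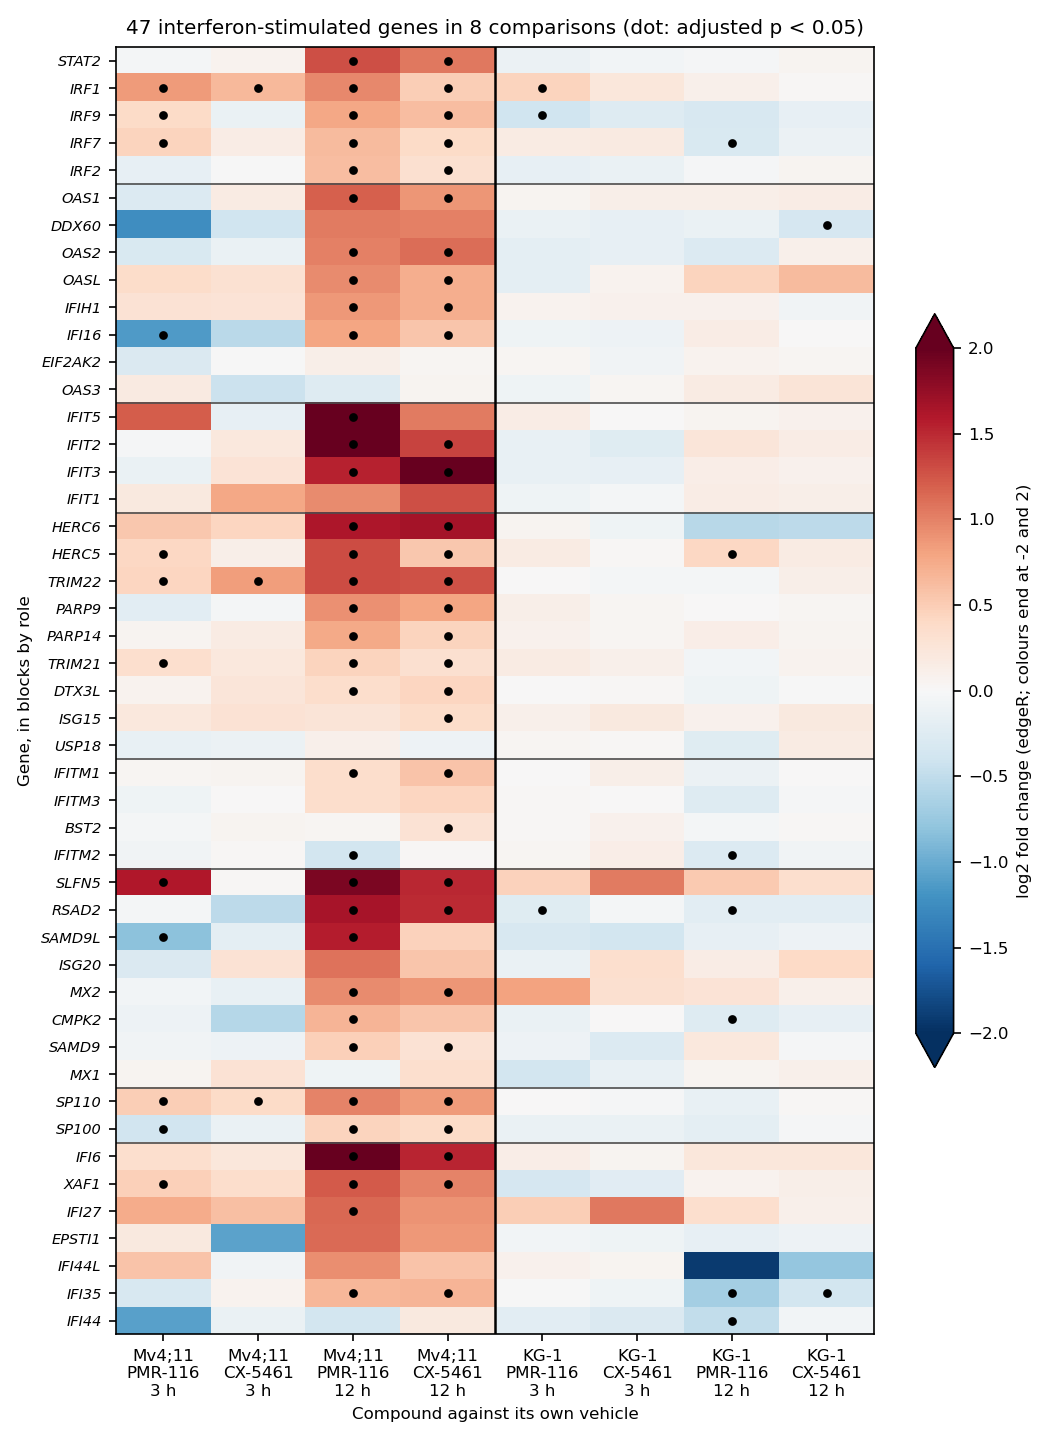
Log2 fold change of each of the 47 genes (rows, in blocks by role) in the 8 comparisons of a compound with its own vehicle (columns), with a dot where the adjusted p was under 0.05. The 2 Mv4;11 columns at 12 h hold 34 and 31 dots, whereas the 4 KG-1 columns hold 0 to 7, in fits without a replicate block.

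The transcription factors of the pathway moved together, all 5 of them higher with both compounds. STAT2, a part of the response complex, was at 140, 167 and 149 CPM with PMR-116 and at 62.8, 63.3 and 60.6 CPM in its vehicle. With CX-5461 STAT2 was at 114, 128 and 127 CPM, against 61.1, 55.6 and 61.3 CPM. Neither pair of groups overlapped. IRF9, the DNA-binding part of that complex, was at 25.5 ± 0.671 CPM (SD, n = 3) with PMR-116 against 14.9 ± 1.21, and at 24.5 ± 2.34 with CX-5461 against 15.9 ± 2.14. IRF1 stood at 66.5 ± 8.71 CPM against 34.03 ± 4.56 with PMR-116. With CX-5461 its 3 libraries were at 46.03, 72.0 and 43.4 CPM against 36.4, 40.5 and 37.8, and the call was lost without CX-5461 replicate 2 (adjusted p = 0.429, edgeR) or without any of the 3 vehicle libraries (adjusted p = 0.0614 to 0.112). IRF7, which drives interferon production in immune cells, was at 30.2 ± 3.23 CPM against 19.6 ± 3.44 with PMR-116. With CX-5461 it was at 23.2 ± 1.28 against 17.7 ± 1.33, a call lost without CX-5461 replicate 2 (adjusted p = 0.0621, edgeR). IRF2, which competes with IRF1 for the same letters, was at 54.2 ± 2.96 against 35.6 ± 1.30 and at 44.3 ± 2.30 against 35.5 ± 1.94.

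Among the IFIT proteins, which bind viral RNA, 3 of 4 were called higher with PMR-116 and 2 of 4 with CX-5461, all from very low vehicle levels. IFIT2 was at 1.88, 1.99 and 1.81 CPM with PMR-116 against 0.532, 0.144 and 0.578 CPM, a log2 fold change of 2.15 ± 0.46 (SE, adjusted p = 0.000491, edgeR). With CX-5461 IFIT2 rose by 1.36 ± 0.46 (adjusted p = 0.0267), but replicate 3, at 1.97 CPM, lay far above the other libraries at 0.744 and 0.818. Without that library the value was 0.76 (adjusted p = 0.277, edgeR), and the call was also lost without vehicle replicate 1 or 2 (adjusted p = 0.0947 and 0.0754).

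IFIT3 was the member with the largest called change under CX-5461. It was at 0.590, 0.723 and 1.03 CPM against 0.154, 0.133 and 0.245 CPM, a log2 fold change of 2.09 ± 0.44 (SE, adjusted p = 0.000696, edgeR). With PMR-116 IFIT3 rose by 1.53 ± 0.40 (adjusted p = 0.00326), from 0.364, 0.359 and 0.365 CPM to 0.906, 1.11 and 1.16. The treated and vehicle libraries did not overlap in either case. The IFIT genes are paralogues that lie in a cluster, so that reads shared between them could have been divided by the quantification.

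IFIT5 had the largest fitted change with PMR-116, at 2.37 ± 0.89 on the log2 scale (SE, adjusted p = 0.0339, edgeR). That change rested on 12, 12 and 13 counts with PMR-116 against 5, 1 and 0 counts in its vehicle. The call was lost without any 1 of the 3 PMR-116 libraries or without vehicle replicate 2 or 3 (adjusted p = 0.0562 to 0.134). With CX-5461 IFIT5 was at 0.128, 0.0629 and 0.0540 CPM and was not called. IFIT1 was at 0.704 ± 0.166 CPM with PMR-116 against 0.365 ± 0.166 and was not called with either compound.

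Among the sensors and OAS enzymes, 5 of 8 were called higher with each compound, and they were the same 5 genes. OAS2, whose product makes the second messenger that activates RNase L, rose by 1.11 ± 0.17 on the log2 scale with CX-5461 (SE, adjusted p = 2.21e-05, edgeR), from 3.05, 2.76 and 4.70 CPM to 7.54, 6.57 and 8.74. With PMR-116 OAS2 was at 8.10 ± 0.151 CPM against 4.03 ± 0.351. IFIH1, the cytosolic RNA sensor MDA5, was at 8.08 ± 0.167 CPM against 4.44 ± 0.702 with PMR-116 and at 8.04 ± 0.759 against 4.85 ± 0.446 with CX-5461. OAS1 was at 4.02 ± 1.04 against 1.76 ± 0.401 and at 3.06 ± 0.3 against 1.65 ± 0.411. IFI16, a sensor of DNA, was at 24.5 ± 2.33 CPM against 14.2 ± 1.83 and at 21.6 ± 2.52 against 14.6 ± 1.23. OASL completed the 5. EIF2AK2, the RNA-activated kinase PKR, was at 14.5 ± 1.52 CPM with PMR-116 against 13.4 ± 1.72, which was within the spread between libraries. OAS3 and DDX60 were under 2.5 CPM in each library of this line and were not called.

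The ISG15 system attaches a ubiquitin-like protein to other proteins, and TRIM, PARP9, PARP14 and DTX3L proteins add ubiquitin or ADP-ribose. In this set 7 of 9 members rose with PMR-116 and 8 of 9 with CX-5461. HERC6, a ligase related to the ISG15 ligase HERC5, rose by 1.62 ± 0.36 with PMR-116 (SE, log2 scale, adjusted p = 0.000619, edgeR) and by 1.67 ± 0.36 with CX-5461 (adjusted p = 0.000924). The HERC6 libraries with CX-5461 were at 3.75, 3.74 and 5.75 CPM against 1.39, 1.03 and 1.71. TRIM22, an antiviral ligase, was the most abundant of the set, and rose by 1.27 ± 0.07 with CX-5461 (adjusted p = 1.09e-11). Its libraries were at 281, 300.1 and 293 CPM with CX-5461 and at 305, 292 and 283 with PMR-116, while the 6 vehicle libraries at 12 h lay between 114 and 126. ISG15 itself was at 9.57 ± 0.6196 CPM with PMR-116 against 7.99 ± 1.06 and was not called, and at 9.92 ± 1.11 with CX-5461 against 7.68 ± 0.498, which was called at an adjusted p of 0.0455 (edgeR). USP18, which removes ISG15 and restrains the interferon receptor, was at 2.33 ± 0.161 CPM against 2.17 ± 0.205 with PMR-116 and was not called with either compound.

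Among the other antiviral effectors, 6 of 8 rose with PMR-116 and 4 of 8 with CX-5461. SLFN5, of the Schlafen family, rose by 1.89 ± 0.20 with PMR-116 (SE, log2 scale, adjusted p = 3.54e-08, edgeR), from 5.43, 5.14 and 6.24 CPM to 19.2, 19.4 and 23.7. With CX-5461 SLFN5 rose by 1.51 ± 0.20 (adjusted p = 2.48e-06), to 12.9, 16.8 and 16.9 CPM from 6.04, 3.49 and 6.75. RSAD2, which encodes viperin, rose by 1.65 ± 0.26 with PMR-116 (adjusted p = 1.08e-05) and by 1.5 ± 0.26 with CX-5461 (adjusted p = 9.18e-05). Its libraries were at 7.27, 6.84 and 5.50 CPM with PMR-116 against 2.66, 2.19 and 1.4, and no groups overlapped. SAMD9L, a growth-restraining gene mutated in familial myeloid disorders, rose by 1.57 ± 0.25 with PMR-116 (adjusted p = 1.20e-05), from 3.19, 3.12 and 3.17 CPM to 9.15, 11.2 and 7.76. With CX-5461 SAMD9L was at 5.64 ± 0.609 CPM against 4.09 ± 0.899 and was not called. MX2 was called with both compounds, whereas MX1 stood at 3.19 ± 1.03 CPM with PMR-116 against 3.39 ± 0.990.

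IFI6, a mitochondrial and endoplasmic reticulum protein that blocks flavivirus replication, rose by 2.00 ± 0.33 on the log2 scale with PMR-116 (SE, adjusted p = 1.88e-05, edgeR). The IFI6 libraries were at 6.51, 5.62 and 8.30 CPM against 1.88, 1.47 and 1.74. With CX-5461 IFI6 rose by 1.52 ± 0.32 (adjusted p = 0.000708), to 5.46, 5.09 and 4.51 CPM from 1.42, 1.79 and 2.01, again with no overlap. XAF1, which promotes apoptosis, was at 50.7 ± 6.07 CPM against 21.7 ± 1.88 with PMR-116 and at 43.7 ± 1.29 against 21.9 ± 2.17 with CX-5461. IFI35 was called higher with both and IFI27 with PMR-116. IFI44, IFI44L and EPSTI1 were under 1 CPM in every library of this line and were not called. The nuclear body genes SP100 and SP110 were both called higher with both compounds.

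The membrane restriction proteins IFITM1, IFITM2 and IFITM3 hinder virus entry, and BST2 tethers virus particles. IFITM2 was the single member that fell at 12 h, with a log2 fold change of -0.36 ± 0.08 with PMR-116 (SE, adjusted p = 0.000499, edgeR). It was at 100.3, 94.6 and 103 CPM against 124, 141 and 118, so that the groups did not overlap, whereas with CX-5461 it was at 128 ± 8.92 CPM against 126 ± 4.26. IFITM1 was called higher with both compounds, at 95.3 ± 9.54 CPM against 74.5 ± 11.5 and at 115 ± 5.96 against 77.8 ± 5.82. The IFITM genes are near-identical paralogues, so the division of reads between them is uncertain. BST2 was at 129 ± 1.43 CPM against 126 ± 14.4 with PMR-116 and at 158 ± 5.996 against 130 ± 3.62 with CX-5461 (called, adjusted p = 0.0467, edgeR). With DESeq2-style size factors (RLE) the CX-5461 calls of ISG15 and BST2 were lost.

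**Figure D2:**
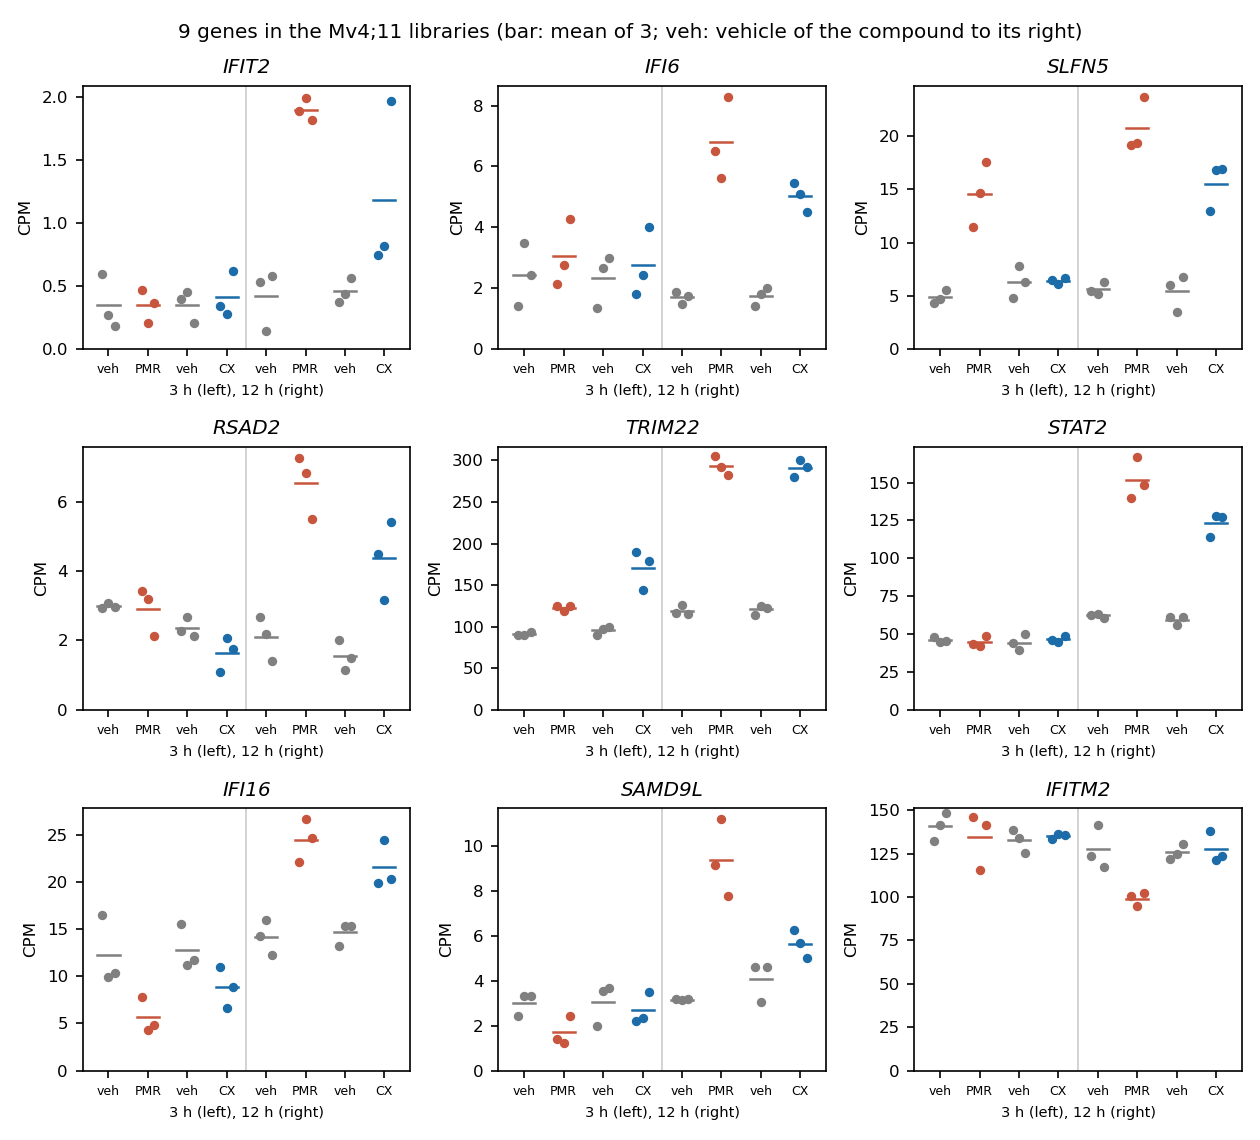
CPM of 9 genes in each Mv4;11 library (points) with the mean of each group of 3 (bars), vehicle in grey, PMR-116 in red and CX-5461 in blue, at 3 h left of the line and 12 h right of it. The 3 STAT2 libraries with PMR-116 at 12 h sit at 140 to 167 CPM, above all vehicle libraries, and IFI16 with PMR-116 lies below its vehicle at 3 h and above it at 12 h.

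At 3 h in Mv4;11 fewer members had moved. PMR-116 raised 9 and lowered 3, where 11% of all tested genes were called higher and 13.1% lower, and CX-5461 raised 3 and lowered none, against 5.05% and 6.61%. The members' median log2 fold change was 0.03 with PMR-116 and 0.05 with CX-5461. The 3 genes raised by CX-5461 (IRF1, TRIM22 and SP110) were all among the 9 raised by PMR-116, which is 33.3% of the latter. All 9 genes raised at 3 h with PMR-116 were also called higher at 12 h. In 8 of the 9, every treated library lay above every vehicle library, and so they did in the 3 raised by CX-5461. These overlaps and separations were not counted over all genes.

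SLFN5 had the largest early rise with PMR-116, of 1.60 ± 0.20 on the log2 scale (SE, adjusted p = 3.02e-06, edgeR). Its libraries were at 11.4, 14.7 and 17.6 CPM against 4.28, 4.66 and 5.54. IRF1, an early response gene, rose by 0.86 ± 0.18 with PMR-116 (adjusted p = 0.000976), to 83.4, 50.6 and 63.1 CPM from 43.8, 35.6 and 29.1. SP110 rose by 0.49 ± 0.11 (adjusted p = 0.00138), to 17.1, 14.7 and 13.99 CPM from 11.0, 10.4 and 11.2. The groups did not overlap in any of these. The remaining early rises were 0.34 to 0.47 in log2 and were those of XAF1, IRF7, TRIM22, HERC5, IRF9 and TRIM21. XAF1 and HERC5 lost their calls without any 1 of 4 libraries (PMR-116 replicates 1 and 2 for XAF1, 2 and 3 for HERC5, and vehicle replicates 2 and 3 for both), with adjusted p-values of 0.0543 to 0.126 and 0.0896 to 0.179.

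There were 3 early falls with PMR-116, and all 3 genes were called higher at 12 h. IFI16 fell by 1.13 ± 0.22 on the log2 scale (SE, adjusted p = 0.000405, edgeR), from 16.5, 9.88 and 10.3 CPM to 7.85, 4.30 and 4.82. SAMD9L changed by -0.82 ± 0.26 (adjusted p = 0.0236), to 1.42, 1.23 and 2.45 CPM from 2.45, 3.31 and 3.32. The SAMD9L call was lost without PMR-116 replicate 1 or 2 or vehicle replicate 2 or 3 (adjusted p = 0.0730 to 0.130). SP100 changed by -0.38 ± 0.07 (adjusted p = 0.000478), from 37.6, 42.7 and 38.6 CPM to 30.1, 30.4 and 30.6, with no overlap.

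With CX-5461 at 3 h, TRIM22 was at 190.0, 144 and 179 CPM against 90.0, 97.0 and 99.2, a rise of 0.84 ± 0.07 in log2 (SE, adjusted p = 1.57e-08, edgeR). IRF1 rose by 0.65 ± 0.18 (adjusted p = 0.0185), to 52.5, 54.1 and 41.2 CPM from 29.99, 32.9 and 31.2. SP110 rose by 0.39 ± 0.11 (adjusted p = 0.0162), to 15.7, 13.3 and 15.9 CPM from 11.3, 10.2 and 12.7. The IRF1 call was lost without CX-5461 replicate 1 or 2 or vehicle replicate 1 or 3 (adjusted p = 0.0551 to 0.0745). The SP110 call was lost without CX-5461 replicate 1 or 3 or vehicle replicate 2 (adjusted p = 0.0585 to 0.0912).

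The difference between the 12 h and the 3 h effect was tested in the same fit. In Mv4;11 it was positive for 21 members and negative for 1 with PMR-116 (12.2% and 15.4% of all genes), and positive for 18 and negative for none with CX-5461 (7.59% and 9.15%). SAMD9L had the largest difference with PMR-116, at 2.39 in log2 (95% interval 1.69 to 3.10, adjusted p = 1.77e-05, edgeR), followed by IFIT2 at 2.18, IFI16 at 1.92 and RSAD2 at 1.69. RSAD2 led with CX-5461, at 2.02 (1.28 to 2.75, adjusted p = 0.000462), followed by IFIT3 at 1.82, SLFN5 at 1.48 and OAS2 at 1.25. IFITM2 had the negative difference with PMR-116, at -0.30, and lost its call without any of 8 libraries. The IFIT2 difference was lost without PMR-116 replicate 2 or vehicle replicate 1 at 3 h or vehicle replicate 2 at 12 h, and the IFIT3 difference with CX-5461 was lost without any of 8 libraries. The vehicle libraries themselves changed less between the times. In Mv4;11, 6 members were higher at 12 h than at 3 h (5.44% of all genes) and 1 lower (7.42%), led by STAT2 at 0.43 ± 0.06 in log2 and with EIF2AK2 at -0.61 ± 0.13 (SE).

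The compounds were compared directly at the same dose and time, each effect being taken against its own vehicle. These 4 comparisons (both lines and both times) covered 47 members each, with p-values adjusted over all genes of a comparison. At 12 h in Mv4;11 the log2 fold change was larger with PMR-116 in 33 members, but the difference was called in only 2, HERC5 and IFITM2 (1.27% of all genes were called larger with PMR-116 and 3.84% smaller). Across the 47 genes the fold changes of the compounds had a Pearson r of 0.81 and a Spearman rho of 0.86, as a description over genes of the same 12 libraries. HERC5 rose more with PMR-116, to 9.91, 9.14 and 8.67 CPM from 3.67, 3.99 and 3.56, than with CX-5461, to 6.64, 6.13 and 5.96 CPM from 3.88, 4.65 and 4.404. The difference was 0.77 in log2 (95% interval 0.39 to 1.16, adjusted p = 0.0213, edgeR). The IFITM2 difference was -0.39 (-0.60 to -0.17, adjusted p = 0.0413). The HERC5 call was lost without any 1 of 5 of the 12 libraries (adjusted p = 0.0514 to 0.0573) and the IFITM2 call without any 1 of 9 (adjusted p = 0.0599 to 0.167), and the latter also with library totals as scaling.

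Where no difference between the compounds was called, its interval shows what remains possible. At 12 h in Mv4;11 the 95% interval of the difference included 0 for 41 members and lay within -1 and 1 for 31, with a median of 0.54 to either side. The genes called higher with both compounds numbered 29, which was 87.9% of those with PMR-116 and 93.5% of those with CX-5461. This sharing was not counted over all genes, so whether it is particular to the members was not tested. CMPK2, IFI27, IFIT5 and SAMD9L were called with PMR-116 alone and BST2 and ISG15 with CX-5461 alone, but none of these 6 differences passed the test in the main fit. The SAMD9L difference, singled out after its values were seen, was 1.11 in log2 with an adjusted p of 0.0636 (edgeR). With library totals as scaling, the differences of SAMD9L, IRF2 and PARP14 were called. CMPK2 was then also called with CX-5461, and ISG15 with PMR-116.

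At 3 h in Mv4;11 the compounds differed in SLFN5 and TRIM22 (0.61% of all genes were called larger with PMR-116 and 0.732% smaller). SLFN5 was at 6.46, 6.10 and 6.68 CPM with CX-5461 against 4.76, 7.82 and 6.32, so that these groups overlapped, and its difference was 1.57 in log2 (95% interval 1.01 to 2.13, adjusted p = 0.00408, edgeR). TRIM22 was lower with PMR-116 than with CX-5461 relative to vehicle, by -0.41 (-0.61 to -0.21, adjusted p = 0.0443). At 12 h the TRIM22 levels with the compounds overlapped. The TRIM22 difference was lost without any 1 of 10 of the 12 libraries (adjusted p = 0.0515 to 0.127) and with library totals. With library totals the IRF9 difference was called. In KG-1 no member differed between the compounds at 3 h (0% and 0.0107% of all genes, with 1 member at an unadjusted p under 0.05) or at 12 h (0.0215% and 0.0269%, with 6 members), in edgeR or in DESeq2, and 42 and 43 of the 47 intervals lay within -1 and 1.

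**Figure D3:**
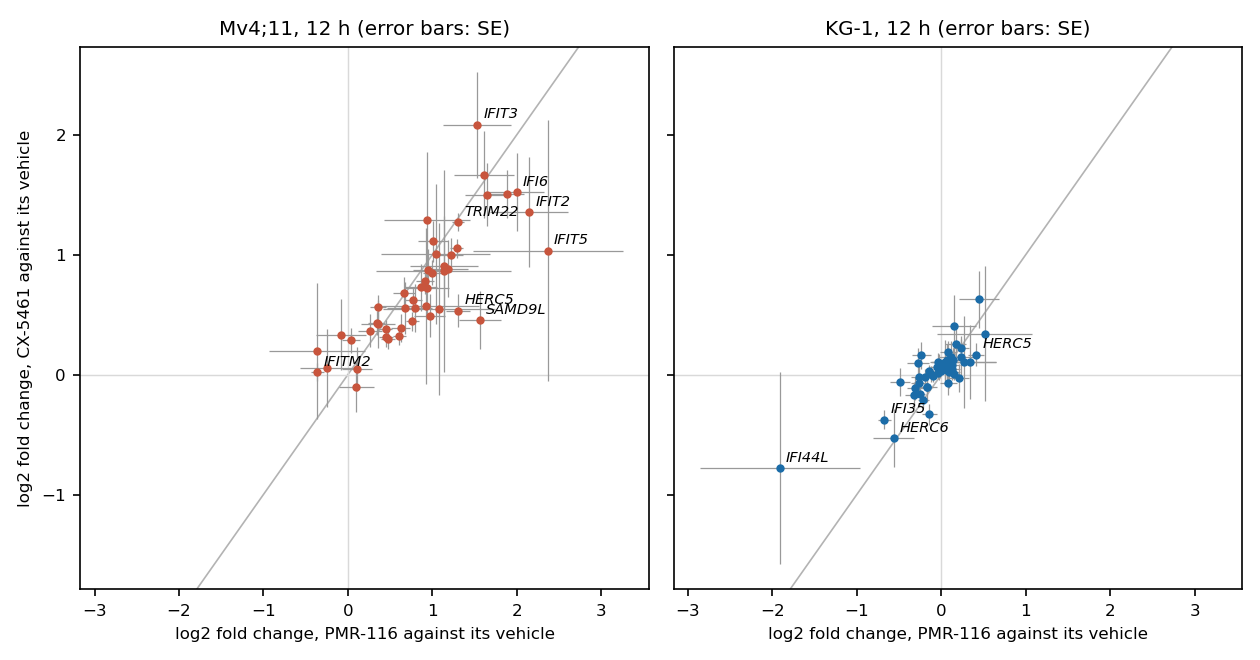
Log2 fold change at 12 h with PMR-116 (horizontal axis) and CX-5461 (vertical axis), each against its own vehicle, for the 47 genes in Mv4;11 (left) and KG-1 (right), with standard errors and the line of equal change. In Mv4;11, 33 genes lie below that line, and in KG-1 the called genes lie between -0.67 and 0.42 on the horizontal axis.

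In KG-1 at most 7 interferon-stimulated genes were called in any comparison of a compound with its vehicle in the main edgeR fit. That fit had no replicate block, and some alternatives called more. At 12 h PMR-116 raised 1 and lowered 6 (4.73% and 4.74% of all 18618 genes tested), and CX-5461 raised none and lowered 2 (1.36% and 1.18%). At 3 h PMR-116 raised 1 and lowered 2 (3.61% and 3.71%). CX-5461 changed none at 3 h in the main edgeR fit (1.85% and 1.58%), where 6 members had an unadjusted p under 0.05, and DESeq2 called 1. The 12 h count with PMR-116 was 11 with DESeq2, 12 against both vehicle groups, 4 with no filter on low counts and 2 when only the compared groups were fitted. With the replicate number as a block in edgeR it was 17, 4 higher and 13 lower, and that with CX-5461 was 6. The KG-1 libraries are numbered in order of replicate, a hint of pairing, so the counts without the block may be too low. The shares of all genes called in these alternatives are not given here. The median log2 fold change with PMR-116 at 12 h was -0.02.

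IFI35, a leucine zipper protein, was the clearest fall in KG-1. With PMR-116 at 12 h it was at 9.87, 10.01, 8.96 and 10.7 CPM against 17.4, 14.4, 15.7 and 15.5, a log2 fold change of -0.67 ± 0.08 (SE, adjusted p = 2.21e-06, edgeR). With CX-5461 IFI35 was at 12.2, 12.4, 10.9 and 12.8 CPM against 15.9, 15.8, 15.5 and 15.4, a change of -0.37 ± 0.08 (adjusted p = 0.00764). Neither pair of groups overlapped, and IFI35 in Mv4;11 was higher with both compounds at that time. Its change at 3 h in KG-1 was smaller, the difference between the times with PMR-116 being -0.66 (adjusted p = 0.0014, edgeR). IFI35 was the 1 member whose PMR-116 effect differed between the times in KG-1 (0.918% of all genes were larger and 0.768% smaller at 12 h), and with CX-5461 none did in edgeR (0.145% and 0.118%, with 3 members at an unadjusted p under 0.05) or in DESeq2.

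IFI44 in KG-1 was at 4.52, 4.61, 4.20 and 4.74 CPM with PMR-116 at 12 h against 6.93, 5.78, 6.15 and 6.47, a change of -0.49 ± 0.12 in log2 (SE, adjusted p = 0.00707, edgeR). IRF7 was at 11.9, 13.8, 12.5 and 13.8 CPM against 14.1, 19.1, 16.8 and 14.1 (-0.30 ± 0.10, adjusted p = 0.0494). HERC5 was the rise, at 7.43, 8.89, 9.36 and 8.15 CPM against 6.64, 5.53, 6.49 and 6.69 (0.42 ± 0.09, adjusted p = 0.00435). IFITM2 fell by 0.27 in log2, CMPK2 by 0.25 and RSAD2 by 0.21. The calls of IRF7 (adjusted p up to 0.212), IFITM2 (up to 0.200) and RSAD2 (up to 0.160) were lost without any 1 of 5 or 6 of the 8 libraries, and that of CMPK2 without vehicle replicate 1. DDX60, an RNA helicase, changed by -0.33 ± 0.09 with CX-5461 (adjusted p = 0.0314), from 15.4, 15.2, 13.7 and 17.5 CPM to 11.6, 12.3, 11.2 and 14.1, groups that overlapped. Its call was lost without any 1 of 5 libraries (adjusted p = 0.0612 to 0.142).

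At 3 h in KG-1, IRF1 was at 84.7, 71.8, 68.8 and 62.1 CPM with PMR-116 against 61.8, 47.6, 47.1 and 55.3, a rise of 0.44 ± 0.13 in log2 (SE, adjusted p = 0.0330, edgeR). IRF9 was at 11.4, 13.2, 14.5 and 12.8 CPM against 16.6, 20.2, 15.5 and 16.4 (-0.40 ± 0.11, adjusted p = 0.0193), with no overlap. RSAD2 was at 70.2, 70.8, 68.5 and 78.2 CPM against 92.1, 84.2, 72.3 and 91.8 (-0.24 ± 0.07, adjusted p = 0.0243), with 1 vehicle library among the treated ones. Each of these calls was lost without any 1 of 3 to 6 of the 8 libraries, with adjusted p-values up to 0.143 for IRF1, 0.116 for IRF9 and 0.0986 for RSAD2.

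The difference of each effect between the lines was tested in a fit of all 56 libraries. At 12 h the effect of PMR-116 was larger in Mv4;11 than in KG-1 for 30 members and smaller for none, where 12.1% of all genes were called larger and 13.2% smaller. The effect of CX-5461 was larger for 24 and smaller for none (7.18% and 9.04%). At 3 h the counts were 4 and 1 with PMR-116 (3.75% and 3.19%) and 2 and 0 with CX-5461 (1.57% and 1.5%). These differences cannot be told apart from the batch label, which separates the lines in the same way.

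IFIT5 differed most between the lines with PMR-116 at 12 h, by 2.36 in log2 (95% interval 1.18 to 3.55, adjusted p = 0.00209, edgeR), and without replicate 3 of each group its adjusted p was 0.0984. HERC6 followed at 2.24 (1.39 to 3.08), IFIT2 at 1.95 and RSAD2 at 1.92. With CX-5461 HERC6 was again first at 2.22 (1.37 to 3.08, adjusted p = 0.000145), then IFIT3 at 2.02, RSAD2 at 1.75 and DDX60 at 1.37. DDX60 lost its call without replicate 1 (adjusted p = 0.569) or replicate 4. At 3 h with PMR-116 the larger effects in Mv4;11 were those of XAF1 (0.85), IRF9 (0.84), SP110 (0.54) and TRIM22 (0.47), and IFI16 differed by -1.01. At 3 h with CX-5461 they were TRIM22 (0.91) and SP110 (0.45). Of these early differences, XAF1 was lost without replicate 2 or 3, IRF9 without replicate 2, SP110 and TRIM22 with PMR-116 without replicate 1, and SP110 with CX-5461 without replicate 1, 2 or 3.

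The lines also differed in the vehicle level of these genes. In the vehicle libraries 36 members were lower in Mv4;11 than in KG-1 and 8 were higher (39.6% and 48.4% of all genes), with a median log2 difference of -1.34 beside 0.16 over all genes. The lowest and highest vehicle libraries (12 in Mv4;11, 16 in KG-1) did not overlap in 32 members, 27 of them lower in Mv4;11 and 5 higher. Separate ranges were not counted over all genes, so whether 32 is more than usual between these lines was not tested. EPSTI1 differed most, at 116 CPM on average in KG-1 (92.7 to 138) and 0.220 CPM in Mv4;11 (0 to 0.659), a log2 difference of -9.36 ± 0.12 (SE, edgeR). IFIT5 was at 10.1 CPM (7.37 to 13.5) against 0.0422 (0 to 0.140), a difference of -8.06. RSAD2 was at 89.5 CPM (72.3 to 103) against 2.24 (1.13 to 3.07), and OAS3 at 28.5 (22.98 to 34.7) against 0.684 (0.431 to 1.07). The 5 genes above in Mv4;11 were MX2, SLFN5, TRIM21, STAT2 and TRIM22. MX2 was at 9.28 CPM (6.72 to 12.1) against 0.583 (0.283 to 1.52), a difference of 3.81 ± 0.15, and SLFN5 at 5.54 (3.49 to 7.82) against 0.494 (0.0735 to 1.02), a difference of 3.29 ± 0.22.

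**Figure D4:**
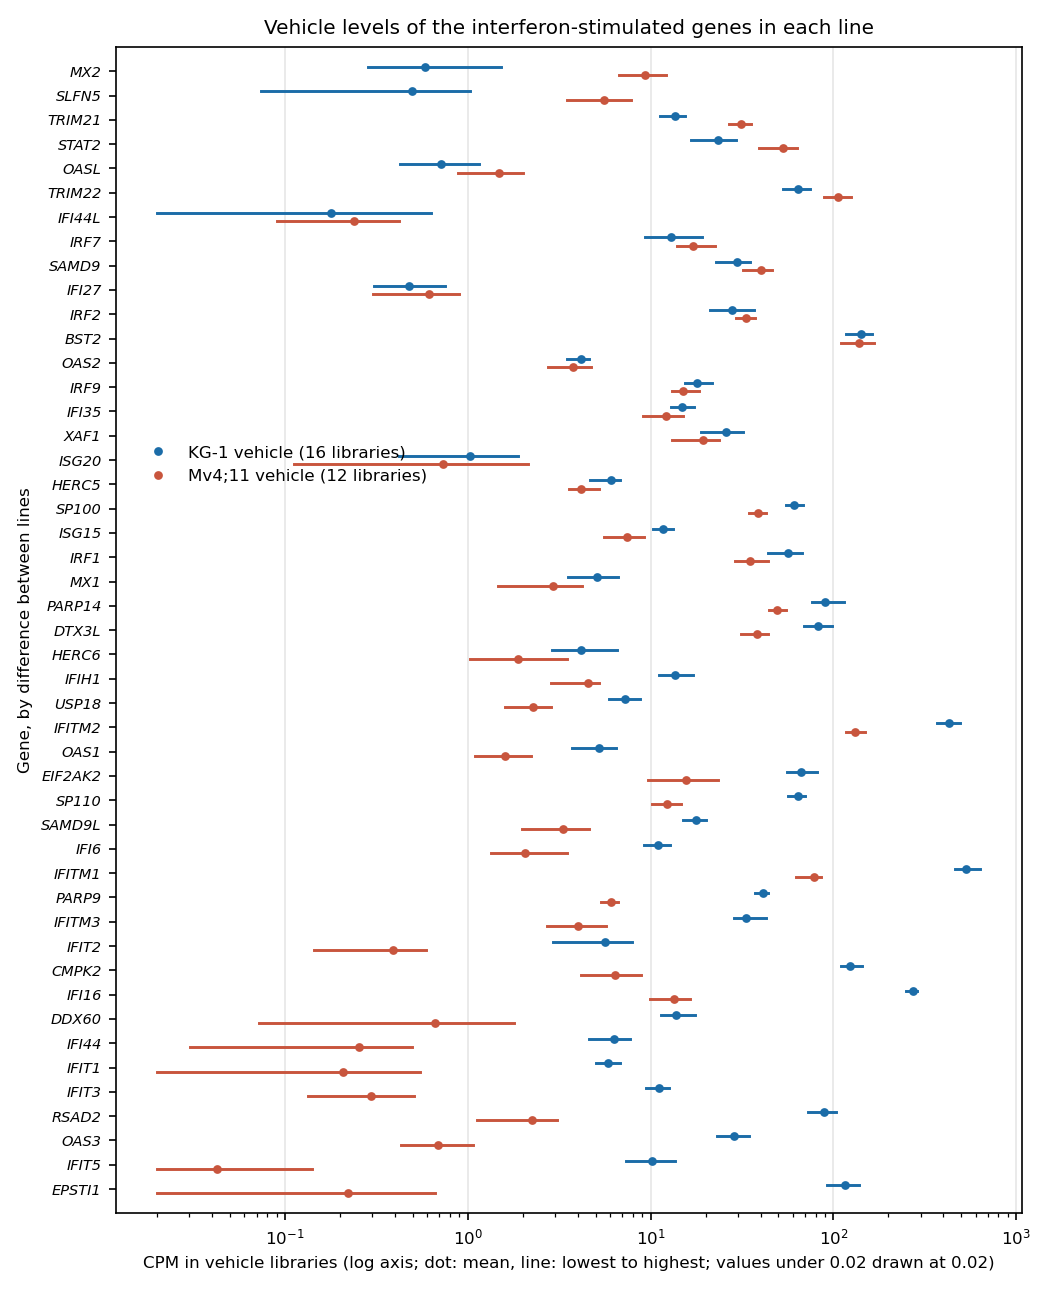
Mean CPM (dot) and lowest to highest library (line) of the 47 genes in the vehicle libraries of KG-1 (16) and Mv4;11 (12), on a log axis, ordered by the difference between the lines. The ranges are separate for 32 genes, with 27 lower in Mv4;11, from EPSTI1 at the bottom, and 5 higher, with MX2 at the top. Separate ranges were not counted over all genes.

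Members that started lower in Mv4;11 often stayed below the KG-1 vehicle level after they were raised. Of the 23 members that were both lower in Mv4;11 vehicle and raised by PMR-116 at 12 h, 14 had a treated mean below the lowest KG-1 vehicle library. The other 9 (HERC5, HERC6, IFI35, IRF1, IRF9, OAS1, OAS2, PARP14 and XAF1) reached or passed it in CPM scaled within each line. With CX-5461 the numbers were 14 of 22, and 8 reached it. These members were picked for a lower vehicle level in Mv4;11, and the same count was not made over all genes. Whether staying below is particular to the members was therefore not tested. RSAD2, at 6.54 ± 0.925 CPM with PMR-116, remained far below the KG-1 range given above. These CPM were scaled within each line, and scaling both lines together multiplied them by 1.03 to 1.08 in KG-1 and by 0.903 to 0.948 in Mv4;11. The counts were not repeated with that joint scaling. With PMR-116, PARP14 was at 82.8 CPM against 76.2 in the lowest KG-1 vehicle library, and OAS1 at 4.02 against 3.70. Margins this small may be lost with the joint scaling. Across the 47 genes the rank correlation of the 12 h fold change in Mv4;11 with the level in the other compound's vehicle was -0.37 for PMR-116 and -0.36 for CX-5461. In KG-1 the same correlations were -0.27 and -0.41, so that the negative sign was not particular to Mv4;11. These values are descriptions over genes, since low counts also have the least precise fold changes. In KG-1 vehicle, 15 members were higher at 12 h than at 3 h (16.2% of all genes) and 1 lower (15.4%), led by ISG20 and IRF7, both at 0.66 in log2.

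Members with and without the core letters in the promoter window were both among those that moved. In Mv4;11 with PMR-116 at 12 h, 13 of the 25 members with the letters and 12 of the 12 with a window but no match were called higher. With CX-5461 the counts were 13 of 25 and 10 of 12. The 12 without a match were STAT2, IRF1, IRF9, IFI16, OAS1, HERC6, CMPK2, SAMD9L, SP100, SP110, IFI35 and XAF1. No test was made of these counts, and no match says only that these letters are not in this window. Among the holders printed above, IFIT5, IFI6, RSAD2, IFIT3, HERC5 and IFI27 were called with PMR-116, while ISG15, IFIT1, IFITM3 and EPSTI1, which also hold a match, were not. Of the latter, ISG15 and IFITM3 were called with library totals as scaling.

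**Figure D5:**
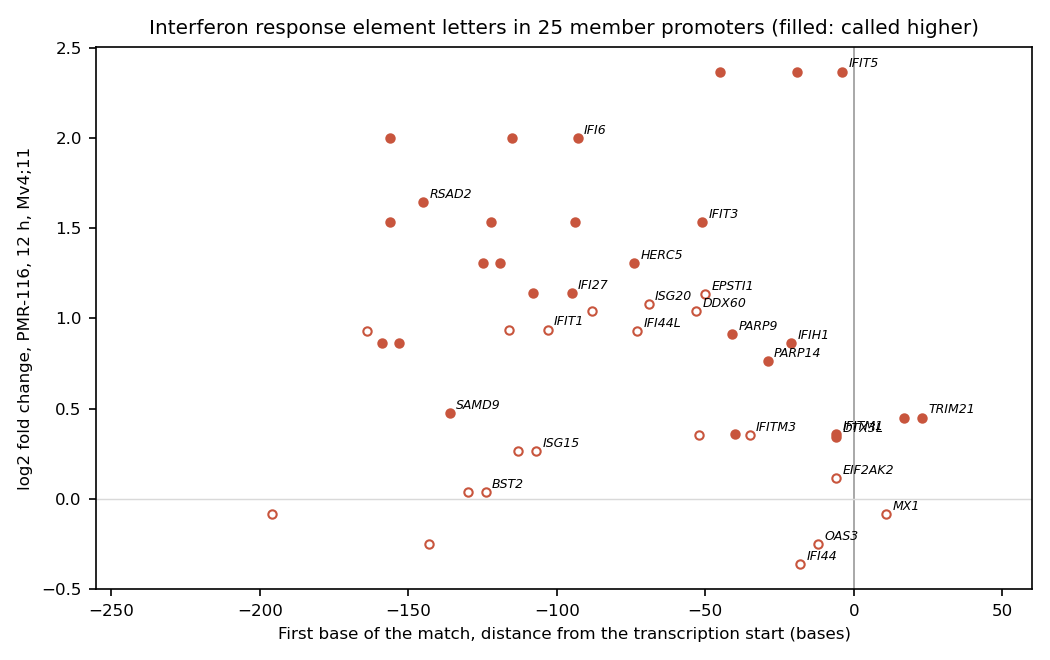
Log2 fold change with PMR-116 at 12 h in Mv4;11 (vertical axis) against the distance of each match of the core letters from an annotated start (horizontal axis, bases), for the 25 members with a match, filled where the gene was called higher. Genes with several matches or starts have several points. The filled and open points, of 13 and 12 genes, share most of the range of distances.

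The rest of the pathway was described with 83 further genes, of which 55 were tested in Mv4;11 and 56 in KG-1. None of the 21 interferon ligand genes passed the filter in either line. Their highest count in 1 library was 6 (IFNL1) in KG-1 and 5 (IFNW1) in Mv4;11, and 13 and 12 of the 21 were at 0 in every library. A count of 0 allows up to 3 counts, or 0.0401 to 0.108 CPM at these depths, for counting error only. Secreted interferon was not measured.

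Of the tested pathway genes, PMR-116 at 12 h in Mv4;11 raised 31 and lowered 7 (20.7% and 22.5% of all genes), with a median log2 fold change of 0.37. CX-5461 raised 22 and lowered 2 (14.8% and 16.5%), with a median of 0.25. At 3 h the counts were 10 and 14 with PMR-116 (11% and 13.1% of all genes) and 7 and 4 with CX-5461 (5.05% and 6.61%). Among receptors, IL10RB, a subunit of the interferon lambda receptor, rose by 0.80 ± 0.08 in log2 and IFNGR2 by 0.41 ± 0.08 with PMR-116 (SE, 12 h). The kinases JAK1 and JAK2 rose by 0.58 ± 0.07 and 0.57 ± 0.10. IRF8 and IRF3 changed by -0.49 ± 0.06 and -0.19 ± 0.05. Of the sensors upstream, RIGI, the RNA helicase RIG-I, rose by 1.67 ± 0.27, from 2.53 ± 0.147 to 8.06 ± 1.03 CPM. STING1, the adaptor of cytosolic DNA sensing, was at 191 ± 5.97 CPM with PMR-116 against 92.9 ± 3.78, and rose by 0.65 ± 0.05 with CX-5461.

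Of the 15 class I antigen presentation genes, 7 were called higher and 5 lower with PMR-116 at 12 h, where 20.7% and 22.5% of all genes were. HLA-E rose by 1.36 ± 0.08 in log2 with PMR-116 (SE) and by 0.78 ± 0.08 with CX-5461, from 302 ± 28.1 to 772 ± 8.71 CPM with the former, and TAP1, a peptide transporter subunit, rose by 0.72 ± 0.08. TAP2 and PSME2 changed by -0.62 ± 0.16 and -0.59 ± 0.06 with PMR-116. Of the guanylate binding proteins and chemokines, 5 of 6 tested rose with PMR-116 and 4 of 6 with CX-5461, including GBP4 at 1.44 ± 0.29 and 1.21 ± 0.29. SOCS1, which restrains JAK signalling, rose by 0.81 ± 0.20 and 1.00 ± 0.21. In KG-1 at 12 h PMR-116 raised 6 and lowered 5 of the 56 (4.73% and 4.74% of all genes). There DHX58 and GBP3 changed by -1.14 ± 0.19 and -0.63 ± 0.17. Each of the genes given here with a standard error was called in edgeR at an adjusted p under 0.05.

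Markers of blood and other lineages were read in the same libraries. With PMR-116 at 12 h in Mv4;11, 7 of the 21 tested markers of the 31 listed were higher and 3 lower (20.7% and 22.5% of all genes), and with CX-5461 5 and 2 (14.8% and 16.5%). KIT changed by 1.06 in log2, PTPRC by 1.01, CSF1R by 0.95 and PECAM1 by 0.94 with PMR-116, while TCF4 changed by -1.52, LYZ by -0.51 and FLT3 by -0.28. The summed level of the 9 myeloid markers was 1595 to 1886 CPM with PMR-116 against 1966 to 2170 in its vehicle. That of the 4 plasmacytoid dendritic cell markers, a cell type rich in interferon production, was 113 to 116 against 154 to 185, and CLEC4C had at most 14 counts in any library of this line. Within this list TCF4 was lower with PMR-116, at 35.4 ± 8.95 against 101.8 ± 15.6 CPM, and IL3RA was higher, at 78.3 ± 7.34 against 63.4 ± 1.83 CPM (SD, n = 3, log2 fold change 0.31, adjusted p = 0.00774, edgeR). The summed level of the 8 lymphocyte markers was 24.5 to 27.3 against 22.6 to 25.03, with CD2 at 0 in every Mv4;11 library. That of the 10 fibroblast, endothelial and epithelial markers was 112 to 127 against 60.4 to 72.4, most of it PECAM1, with COL1A2 and CDH5 at no more than 5 counts. Their part in the result was not tested.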

How the data were processed

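RNA from 56 libraries was sequenced after poly(A) selection with a stranded mRNA kit, per the labels' protocols. The authors deposited 1 table per line of estimated counts by gene symbol. Salmon 1.5.2, DESeq2 and the build GRCh38.p13 are named in the submitters' processing notes, while an annotation release or strand setting was found in no label, note or header. The values are not whole numbers, so the deposited estimated counts were rounded. Of the Mv4;11 columns, 24 matched no sample of the labels and were not used. Total counts per library were 28751758 to 72707757. Replicates had a correlation of 0.980 to 0.990 in log2 CPM, and each pair differed by more than sampling noise, so that none was counted as a duplicate.

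For each line, 1 model covered its 8 groups, in edgeR 4.0.16 in R 4.3.3 (filterByExpr with a minimum count of 10 and a minimum total of 15, TMM scaling, quasi-likelihood test), and all 16 groups together for differences between lines. CPM used TMM-adjusted library sizes within a line. P-values were adjusted by Benjamini-Hochberg over all genes tested, with calls at an adjusted p under 0.05, and 95% intervals came from the standard error. Fitted fold changes of low counts depend on edgeR's prior count. The script was tested on simulated data. Fold changes were printed for up to 8 called members per direction in a compound comparison, up to 4 in a comparison of effects or vehicles, and up to 2 called pathway genes per role and direction. Values in every library were given for the 3 largest called rises and falls and, in addition, for genes chosen to show a role. The members, the other lists and this rule were chosen with earlier results of these data known. Alternatives were other scalings (RLE, library totals), other filters, DESeq2 1.42.0, a replicate block, both vehicle groups as control, only the compared groups, and leaving out libraries. Promoter letters came from RefSeq windows on GRCh38.p14, matched by symbol, and 10 members had no window (IRF2, IRF7, OAS2, OASL, IFIT2, USP18, TRIM22, IFITM2, MX2 and SLFN5).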

Additional observations from a re-analysis of the deposited data

Results flagged for a closer look

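Among 24 sets of 4 KG-1 libraries checked for a library far from the rest of its group, 1 stood apart, where chance gives about 1 in 20. HERC5 in replicate 2 of the KG-1 vehicle of PMR-116 at 12 h was at 5.53 CPM, below the other 3 libraries at 6.49 to 6.69 CPM.

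Effects that differed between times or lines in edgeR's quasi-likelihood test (adjusted p under 0.05, log2 scale) are given for at most 4 members in each direction. In Mv4;11 the PMR-116 effect was larger at 12 h than at 3 h for 21 members, among them SAMD9L (2.39), IFIT2 (2.18), IFI16 (1.92) and RSAD2 (1.69), and smaller for IFITM2 (-0.30). The CX-5461 effect was larger at 12 h for 18, among them RSAD2 (2.02), IFIT3 (1.82), SLFN5 (1.48) and OAS2 (1.25). In KG-1 the PMR-116 effect was lower at 12 h for IFI35 (-0.66).

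Between the lines, the PMR-116 effect at 3 h was larger in Mv4;11 for XAF1 (0.85), IRF9 (0.84), SP110 (0.54) and TRIM22 (0.47) and lower for IFI16 (-1.01), and the CX-5461 effect at 3 h was larger for TRIM22 (0.91) and SP110 (0.45). At 12 h the PMR-116 effect was larger for 30 members, among them IFIT5 (2.36), HERC6 (2.24), IFIT2 (1.95) and RSAD2 (1.92), and the CX-5461 effect for 24, among them HERC6 (2.22), IFIT3 (2.02), RSAD2 (1.75) and DDX60 (1.37). The line and the batch label cannot be told apart in these.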

How the results depend on the processing

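No result changed direction under any alternative run, and the direction of each called member was the same with RLE and library totals. Scaling by library totals moved the median of all genes for PMR-116 at 12 h in Mv4;11 from 0.01 to 0.18 in log2, for its 12 h minus 3 h difference from -0.02 to 0.11, for the difference between lines with PMR-116 at 12 h from 0.06 to 0.16, and for the vehicle level between lines from 0.16 to 0.34. Counts of called members moved by over 1.5 times as follows, and the cause was not tested. For CX-5461 at 3 h in Mv4;11 (3 calls) there were 6 with no filter on low counts and 7 with both vehicle groups as control. For PMR-116 against CX-5461 in that line there was 1 at 3 h (2 before) with only the compared groups, and at 12 h (2 before) 4 with library totals and 4 with DESeq2. In KG-1, PMR-116 at 3 h (3 calls) gave 5 with both vehicle groups, CX-5461 at 3 h (0 calls) gave 1 with DESeq2 and 1 with the replicate block, and PMR-116 at 12 h (7 calls) gave 4 with no filter, 11 with DESeq2, 17 with the block (4 higher and 13 lower), 12 with both vehicle groups and 2 with only the compared groups. CX-5461 at 12 h (2 calls) gave 1 with no filter, 6 with the block and 0 with only the compared groups, and the 12 h minus 3 h difference with PMR-116 (1 call) gave 2 with library totals, 2 with a mean of 1 CPM or more, 3 with DESeq2 and 5 with the block.

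The replicate numbers were not treated as pairing the samples, since no comparison had every same-numbered pair correlated above 0.1. In KG-1, however, every same-numbered correlation was positive, at 0.027 to 0.238 for PMR-116 and 0.0427 to 0.236 for CX-5461 at 12 h, and at 0.0936 to 0.18 and 0.0237 to 0.155 at 3 h. Those in Mv4;11 were smaller, at -0.0133 to 0.0671 for PMR-116 and 0.022 to 0.0337 for CX-5461 at 12 h. At 3 h the Mv4;11 values were 0.0336 to 0.0702 and 0.0375 to 0.11. These values are a hint of pairing from the data, and the labels state no pairing. The KG-1 libraries are, however, numbered by replicate, with every group of a replicate number in sequence before the next. Those of Mv4;11 are numbered by time and compound first. The order in KG-1 is a further hint of pairing, so its counts of calls without the block may be too low. In the vehicle libraries the block gave 10 calls between 12 h and 3 h in Mv4;11 (7 without) and 24 in KG-1 (16 without), while PMR-116 and CX-5461 at 12 h in Mv4;11 gave 34 and 32.

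Leaving out 1 library at a time, the calls for PMR-116 and CX-5461 at 3 h in Mv4;11 were 9 to 13 and 2 to 3, and at 12 h 32 to 33 and 24 to 27. The 12 h minus 3 h differences gave 18 to 22 and 12 to 16, those between the compounds 1 to 2 at 3 h and 0 to 2 at 12 h, and the vehicle change over time 6 to 9. In KG-1, PMR-116 gave 0 to 3 at 3 h and 4 to 8 at 12 h, CX-5461 0 to 1 and 1 to 2, the PMR-116 time difference 1, and the vehicle change over time 12 to 18. Leaving out a replicate number in every group, the differences between lines gave 3 to 5 and 1 to 2 at 3 h, 25 to 30 and 17 to 20 at 12 h, and the vehicle level 43 to 45. Of 900 values of single genes refitted without 1 library or 1 replicate number, 776 kept their side of the threshold, 123 lost the call and 1 gained it. Genes under 1 CPM in Mv4;11, such as IFIT5 and IFIT2 in vehicle, rest on few counts and limit what can be detected there.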
